A study of Mus musculus with 20 samples.

Results

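Editing levels in untreated mouse embryonic fibroblasts (connective tissue cells grown from embryos) lacking ADAR2 were set against those in untreated fibroblasts lacking ADAR1. The site list of the series holds 48425 known editing positions, and 5420 of them had at least 50 reads in all 4 libraries compared, 2 per line. The 236 of these whose level averaged at least 1% in these libraries were tested, and they lie in 97 loci and 93 annotated genes. The other 5184 covered sites had a mean under 1%. The editing level is the share of reads over a site that carry the edited base, in percent. The question put to each site is which line edits it, since the ADAR2-null line keeps ADAR1 and the ADAR1-null line keeps ADAR2.

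Per the labels, the series has 5 genotypes of fibroblasts (ADAR1_WT, ADAR1_NULL, ADAR2_NULL, P150_KO and STAT2_NULL), each untreated and after interferon, with 2 libraries a group and 20 libraries in all. P150_KO lacks only the long form of ADAR1, and STAT2_NULL lacks a transcription factor of interferon signalling. The cells of every group are labelled as mouse embryonic fibroblasts and total RNA was extracted. According to the design text, 557 loci were amplified by reverse-transcription PCR from 6 lines; a further line was not analysed here. The sources used here do not give alleles, strain, embryonic age or passage, and the ADAR1_WT label speaks of ADAR1 alone. Each genotype is 1 line, so the loss of an enzyme and any other difference between the lines cannot be told apart. Nothing says that the libraries of a line came from separate cultures. The edgeR p-values given below then measure only the spread between libraries of a group, estimated over all 20 libraries. Transcript amounts were not measured, so neither the loss of Adar or Adarb1 nor the fibroblast identity could be checked. No site of the 8 fibroblast genes looked up (collagens, vimentin and others) was covered.

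ADAR enzymes deaminate adenosines of double-stranded RNA to inosine, which sequencing reads as guanosine. ADAR1 (gene Adar) has a constitutive nuclear form, p110, and a longer form, p150, which interferon induces and which is largely cytoplasmic. It edits many adenosines in long duplexes, such as those formed by inverted repeats in 3′ UTRs. ADAR2 (gene Adarb1) is mostly nuclear and is known for selective editing of single adenosines in short structured duplexes, among them recoding sites of glutamate receptors and Cog3.

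Coverage summed over sites was 5317026 and 4978546 reads in the ADAR2-null libraries and 5082307 and 5559674 in the ADAR1-null libraries. Sites with at least 50 reads numbered 8591 and 8720 in the ADAR2-null libraries and 5652 and 8405 in the ADAR1-null libraries, the first ADAR1-null library having the fewest. The 2 libraries of a line differed by more than read counting allows, with a chi-square per degree of freedom of 12.9 in ADAR2-null and 5.84 in ADAR1-null, and were kept as separate replicates. Reads carry no molecular identifiers, so limits from read counts cover counting error only. At the 5184 covered sites under 1%, the pooled level was 0.344% and 0.318% in the ADAR2-null libraries and 0.171% and 0.260% in the ADAR1-null libraries. That level is called background below. It comes from listed editing positions taken for their low mean in the same libraries, so it is low by that choice and may include weak editing.

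Most sites that differed were edited in the line that keeps ADAR1. Of the 236 sites tested, 86 (36.4%) were called at an adjusted p under 0.05 in edgeR's quasi-likelihood test on edited and unedited reads, with Benjamini-Hochberg adjustment over all 236. Of these, 74 sites in 37 loci (31.4% of the sites tested) were higher in ADAR2-null cells, with a median difference of 4.47 percentage points. In ADAR1-null cells 12 sites in 11 loci (5.08%) were higher, with a median difference of -3.86 points (ADAR2-null minus ADAR1-null). The median difference over all tested sites was 2.002 points. The remaining 150 sites were not called, and 26 of them had an unadjusted p under 0.05. The 2 libraries of one line lay wholly above those of the other at 118 sites (50% of those tested) with ADAR2-null higher and at 34 (14.4%) with ADAR1-null higher, all called sites among them. Of the 6 ways to split the libraries 2 against 2, a single one gives each of these orders. Many sites can thus separate in this way without a difference between the lines.

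The sites higher in ADAR2-null cells are called ADAR1-side below and those higher in ADAR1-null cells ADAR2-side, after the enzyme each line keeps. The ADAR1-side sites were near background in the opposite line. Of the 74, 67 were under 1% in both ADAR1-null libraries and 13 had no edited read there, and their pooled level in those libraries was 0.240% and 0.318%. Of the 12 ADAR2-side sites, 7 were under 1% in both ADAR2-null libraries and 1 had no edited read there, with a pooled level of 1.57% and 1.18%. Over all 236 tested sites, 110 were under 1% in both ADAR1-null libraries and 29 had no edited read there. In ADAR2-null these counts were 32 and 4. A low level in the opposite line follows in part from how the sides were sorted, and whether the sides differ in it was not tested. Among all tested sites, 25 were at 1% or more in all 4 libraries: 2 ADAR1-side sites (in Mad2l1 and Nt5dc3), 2 ADAR2-side sites (in Cog3 and Mad2l1) and 21 that were not called.

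**Figure D1:**
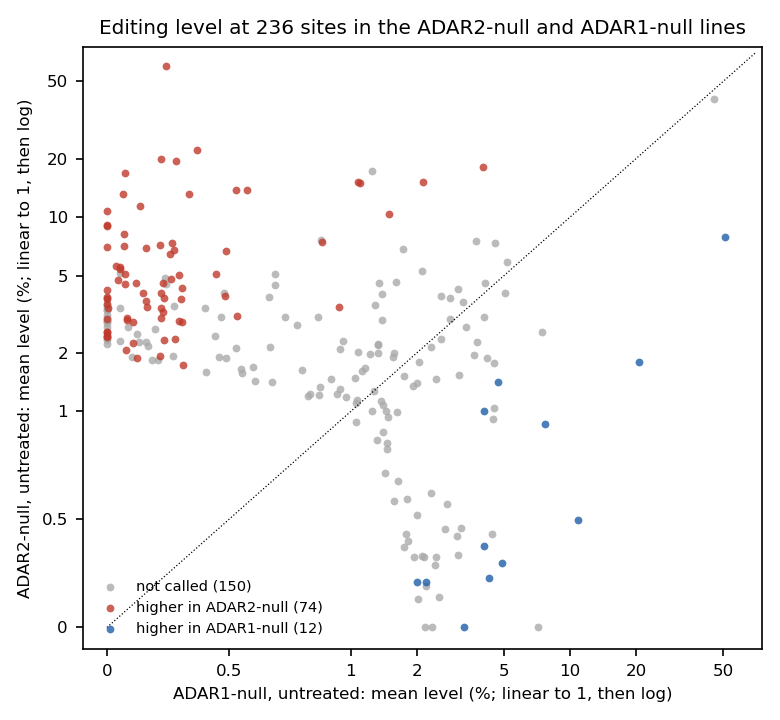
Mean editing level of each of the 236 tested sites in the untreated ADAR1-null line (horizontal) and the untreated ADAR2-null line (vertical), in percent over 2 libraries each, on axes that are linear up to 1% and logarithmic above. Red points are the 74 sites called higher in ADAR2-null, blue points the 12 called higher in ADAR1-null and grey points the 150 not called; most red points lie against the left edge, under 1% in ADAR1-null cells.

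Averaged over the 236 sites, the level was 4.57% and 3.37% in the ADAR2-null libraries and 1.82% and 1.72% in the ADAR1-null libraries. Both ADAR2-null libraries were above both ADAR1-null libraries. The difference was 2.20 ± 0.602 points (SE), and the exact two-sided permutation test gave p = 0.333, the smallest that 2 against 2 libraries allow. The ADAR2-null libraries lay farther apart than the ADAR1-null ones (SD 0.849 and 0.0704 points). The 236 sites were kept for their mean level in these same libraries, so the size of the difference depends on that filter. Over all 5420 covered sites it was 0.197 points, with 0.496% and 0.422% in ADAR2-null and 0.219% and 0.305% in ADAR1-null.

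The highest ADAR2-side site is the known recoding site of Cog3, a subunit of the tethering complex that recycles Golgi enzymes. It lies at chr14:76119526 (mm9, minus strand) and changes an isoleucine codon to valine. Its level was 50.4% and 51.7% in the ADAR1-null libraries and 7.73% and 8.13% in the ADAR2-null libraries. The ADAR1-null libraries were far above the others, with a difference of -43.1 ± 0.68 points (SE, ADAR2-null minus ADAR1-null; edgeR adjusted p = 0.000292). Editing was thus 6.44-fold higher without ADAR1 than without ADAR2, yet well above background in both lines. In ADAR1_WT cells the same site stood at 91.2% ± 1.47 (SD, n = 2), above the 59.0% to which the levels of the null lines add up.

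The adenosine next to it in Cog3, at chr14:76119527, is the synonymous last base of a glutamate codon and followed the same order at lower levels. It was edited in 8.68% and 6.68% of reads in the ADAR1-null libraries against 0.428% and 1.46% in the ADAR2-null libraries, without overlap (-6.73 ± 1.12 points, edgeR adjusted p = 0.0187). The call was lost without the first ADAR2-null library or the first ADAR1-null library (adjusted p up to 0.123). A lysine-to-arginine position of Cog3 16 bases away, chr14:76119510, did not follow that order. Its level was 1.29% and 1.14% in ADAR2-null and 0.228% and 1.51% in ADAR1-null, with overlapping libraries (edgeR adjusted p = 0.541). All 3 positions lie so close together that they share reads.

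Outside coding sequence, the noncoding transcript uc012aji.1 held the second highest ADAR2-side difference, at chr17:6122636 on the plus strand. The level was 23.3% and 18.1% in ADAR1-null and 2.67% and 0.911% in ADAR2-null, from at least 3402 reads a library. Both ADAR1-null libraries were far above the others, an 11.6-fold ratio of means (-18.9 ± 2.75 points, edgeR adjusted p = 0.000125). The 3′ UTR of Als2cl, a relative of the guanine nucleotide exchange factor alsin, came next at chr9:110802807. Its site was edited in 11.4% and 10.4% of ADAR1-null reads and in 0.725% and 0.274% of ADAR2-null reads, the latter close to background (-10.4 ± 0.547 points, edgeR adjusted p = 0.00308).

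The other ADAR2-side sites stayed under 8% in every ADAR1-null library. The Iqgap1 3′ UTR (a scaffold that links Cdc42 to actin) at chr7:87857166 had 4.33% and 3.78% in ADAR1-null and 1.06% and 0.960% in ADAR2-null (-3.05 ± 0.280 points, edgeR adjusted p = 0.00122). The Klhl24 3′ UTR (an adaptor of a cullin ubiquitin ligase) at chr16:20123821 had 3.72% and 4.37% against 0.346% and 0.408% (-3.67 ± 0.327 points, edgeR adjusted p = 0.00354). In both genes the libraries of each line lay close together and the lines did not overlap. These calls held whichever of the 4 libraries was left out, as did those of Cog3 at 76119526, uc012aji.1 and Als2cl. Fitted to the 4 libraries alone, Klhl24 (edgeR adjusted p = 0.0686) and Cog3 at 76119526 (0.0565) and 76119527 (0.0923) were not called.

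Several ADAR2-side calls were lost with a library left out. Those in uc009qeo.1, Fnbp1 and D9Ertd402e were also lost with a replicate block (edgeR adjusted p = 0.0593, 0.0518 and 0.0586) and with the 4 libraries alone (0.134, 0.250 and 0.131). The uc009qeo.1 3′ UTR at chr9:66221404 had 7.69% and 2.13% in ADAR1-null and 0.598% and 0% in ADAR2-null (edgeR adjusted p = 0.0468, up to 0.204 without the second ADAR2-null or the first ADAR1-null library). An intronic site of Fnbp1, a membrane-bending protein of endocytosis, at chr2:30885884 had 0.976% and 3.05% against 0.424% and 0% (edgeR adjusted p = 0.039, up to 0.308 without the second library of either line). The first ADAR1-null library was less than 1 point above the ADAR2-null libraries there. D9Ertd402e (current symbol Tcaim, a mitochondrial protein) at chr9:122745198 in the 3′ UTR had 1.64% and 4.93% in ADAR1-null. No edited read was seen in ADAR2-null cells among 307 reads, which allows a level of up to 0.977%. The mean in ADAR1-null was 3.36-fold that limit, from 1 edited read of 61 and 10 of 203. The call (edgeR adjusted p = 0.0467) was lost without any 1 of the 4 libraries.

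On the ADAR1 side, the gene with the most coding sites was Blcap, a small protein first described in bladder cancer whose transcript is a known editing target. All 3 of its tested sites recode and all 3 were higher in ADAR2-null cells. The tyrosine-to-cysteine site at chr2:157383885 (minus strand) was edited in 23.2% and 15.5% of ADAR2-null reads and in 0.387% and 0.181% of ADAR1-null reads. Without ADAR1 it was near the background level, and the lines did not overlap (19.1 ± 3.82 points, edgeR adjusted p = 1.5e-06). The glutamine-to-arginine site at chr2:157383876 had 4.47% and 4.13% against 0.258% and 0.362% (edgeR adjusted p = 0.00209). The lysine-to-arginine site at chr2:157383846 had 3.96% and 2.52% against 0.259% and 0.198% (edgeR adjusted p = 0.000215). At both the ADAR1-null libraries were again near background and the lines did not overlap. A threonine-to-alanine site in uc008wxi.1 at chr5:31475853 had 15.0% and 11.4% in ADAR2-null and 0.307% and 0.370% in ADAR1-null (12.8 ± 1.78 points, edgeR adjusted p = 0.000377).

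The site that differed most was a lysine-to-glutamate position of Ifi202b, a DNA-binding protein of the interferon-inducible p200 family, at chr1:175901522. It stood at 59.4% and 60.5% in ADAR2-null and at 0.181% and 0.302% in ADAR1-null (59.7 ± 0.518 points, edgeR adjusted p = 0.000132). Across the other lines it was at 59.2% ± 2.55 in STAT2_NULL and 0.379% ± 0.327 in ADAR1_WT (SD, n = 2, untreated), and at 56.6% ± 1.88 in ADAR2-null after interferon. The other 37 covered sites of Ifi202b reached at most 0.831% in the untreated ADAR2-null libraries. Untreated ADAR1_WT cells were thus under 1% at this position, like the ADAR1-null cells. A genomic G cannot be told from an edited A in these reads, and genomic DNA was not analysed here. Without this site the mean difference over the tested sites was 1.96 points in place of 2.20, an alternative added after the data were seen.

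Of the 74 ADAR1-side sites 59 lay in 3′ UTRs, as did 180 of all 236 tested sites. The most different was in Mdc1, an adaptor of the DNA damage checkpoint, at chr17:35994679, with 23.0% and 21.5% in ADAR2-null and 0% and 0.735% in ADAR1-null (21.9 ± 0.831 points, edgeR adjusted p = 0.000215). Car5b, a mitochondrial carbonic anhydrase, had 17.3% and 22.7% against 0% and 0.446% at chrX:160415964 (edgeR adjusted p = 0.00158). Ovca2, a serine hydrolase, had 19.0% and 14.8% against 0% and 0.144% at chr11:74989846 (edgeR adjusted p = 3.01e-05). In each of these genes the first ADAR1-null library had no edited read and both ADAR2-null libraries were above 14%. Mad2l1, a protein of the spindle assembly checkpoint, had 16.4% and 10.03% against 0.132% and 0% at chr6:66490075 (13.1 ± 3.18 points, edgeR adjusted p = 3.73e-05).

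In other 3′ UTRs both ADAR1-null libraries had edited reads. The site of 9930104L06Rik at chr4:124621545 had 20.1% and 10.2% in ADAR2-null and 0.735% and 1.42% in ADAR1-null (edgeR adjusted p = 0.000846). Exoc8, an exocyst subunit, had 17.6% and 12.3% against 1.44% and 0.769% at chr8:127418084 (edgeR adjusted p = 0.00593). Nt5dc3, of the 5′-nucleotidase family, had 23.2% and 12.9% against 3.73% and 4.30% at chr10:86300002. It was the ADAR1-side site with the most editing left in ADAR1-null cells, and its difference (14.02 ± 5.18 points, edgeR adjusted p = 0.0122) was not called without the first library of either line (up to 0.0914). With the 4 libraries alone 9930104L06Rik (0.0662), Exoc8 (0.0586) and Nt5dc3 (0.141) were not called. ADAR1_WT cells stood at 53.8% ± 1.16 (SD, n = 2) there, against 22.05% for the null lines added together.

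At 2 named sites 1 library carried much of the difference or of the spread, and neither was called with the 4 libraries alone (edgeR adjusted p = 0.153 in Iws1 and 0.137 in C330018D20Rik). Iws1, a transcription elongation factor, had 25.7% and 1.74% in ADAR2-null and 0.154% and 0.905% in ADAR1-null (3′ UTR; edgeR adjusted p = 0.0187). The second ADAR2-null library was less than 1 point above an ADAR1-null library, and the call was lost without the first library of either line (up to 0.145). C330018D20Rik had 15.9% and 14.5% in ADAR2-null, and 0.207% and 4.06% in ADAR1-null (3′ UTR; edgeR adjusted p = 0.026). The second ADAR1-null library was the high one, and the call was lost without either ADAR2-null library or without the first ADAR1-null library (up to 0.173).

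**Figure D2:**
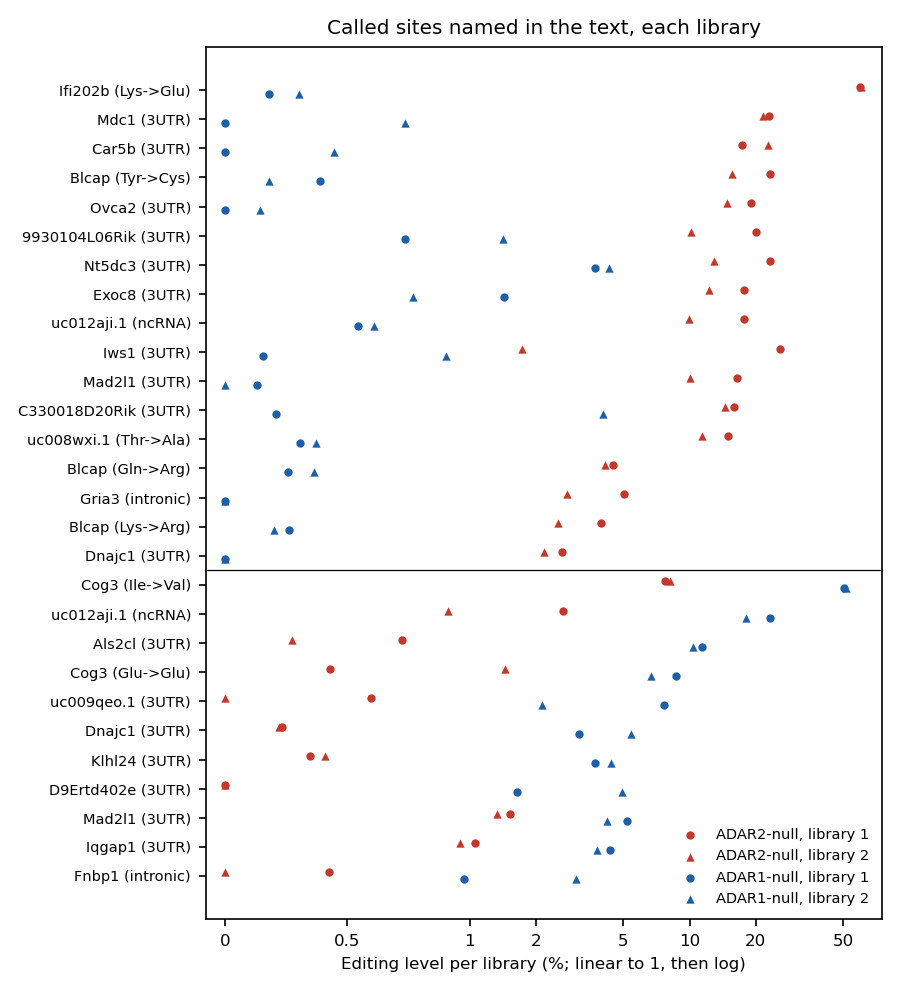
Editing level in each library at the 28 called sites named here, with the gene and the annotated position or codon change on the vertical axis; the horizontal axis is linear up to 1% and logarithmic above. Red is ADAR2-null and blue ADAR1-null, circles are the first and triangles the second library; above the black line the ADAR2-null libraries are higher, below it the ADAR1-null libraries, and at no site do the lines overlap.

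Of 44 genes or transcripts with a called site, 33 had ADAR1-side sites only, 8 had ADAR2-side sites only and 3 had both: uc012aji.1, Mad2l1 and Dnajc1. In uc012aji.1, 8 tested sites span 46 bases, with 5 on the ADAR1 side and 1 on the ADAR2 side. The site with the greatest ADAR1-side difference, at chr17:6122608, had 17.7% and 9.90% in ADAR2-null and 0.543% and 0.608% in ADAR1-null (13.2 ± 3.92 points, edgeR adjusted p = 0.000132). The ADAR2-side site at 6122636 lies 28 bases on, and only 2 bases from an ADAR1-side site at 6122638 with means of 2.36% in ADAR2-null and 0.280% in ADAR1-null. The order of the lines thus turned over within 2 bases of 1 amplified transcript. Those sites share reads, so their libraries are not independent between sites.

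In the Mad2l1 3′ UTR, 18 tested sites span 710 bases, with 13 on the ADAR1 side and 1 on the ADAR2 side. The ADAR2-side site, chr6:66490207, had 5.17% and 4.23% in ADAR1-null and 1.52% and 1.33% in ADAR2-null. The lines did not overlap (-3.28 ± 0.481 points, edgeR adjusted p = 0.0376), but the call was lost with any 1 of the 4 libraries left out (up to 0.149) and with limma (0.0748). An ADAR1-side site lies 4 bases away at 66490203, with means of 3.39% in ADAR2-null and 0.222% in ADAR1-null. The base after it, 66490208, was also higher in ADAR1-null (7.43% against 2.58%) and was not called (edgeR adjusted p = 0.0664). The sites at 66490206 and 66490209, on either side of that pair, had similar means in both lines, 3.65% and 4.57% in ADAR2-null and 3.25% and 4.12% in ADAR1-null.

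The 3′ UTR of Dnajc1, a DnaJ co-chaperone of the endoplasmic reticulum, had 13 tested sites over 775 bases and 1 called site on each side, 627 bases apart. At chr2:18136982 the level was 3.14% and 5.39% in ADAR1-null and 0.234% and 0.222% in ADAR2-null (-4.04 ± 1.12 points, edgeR adjusted p = 0.0146). That call was lost without either ADAR2-null library or the second ADAR1-null library (up to 0.0653). At chr2:18136355 it was 2.63% and 2.18% in ADAR2-null with no edited read among 519 in ADAR1-null, which allows up to 0.578%. The mean in ADAR2-null was 4.16-fold that limit. That call (edgeR adjusted p = 0.0351) was lost with any 1 of the 4 libraries left out (up to 0.140). With the 4 libraries alone neither Dnajc1 site was called (0.0554 and 0.0901). Over all genes, neighbouring called sites within 10 bases formed 19 pairs, 16 on the same side and 3 on opposite sides. The opposite pairs lie in uc012aji.1 and Mad2l1. Of the 86 called sites 74 were on the ADAR1 side, so most pairs would share a side in any case. Whether neighbours share a side more often than that was not tested.

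**Figure D3:**
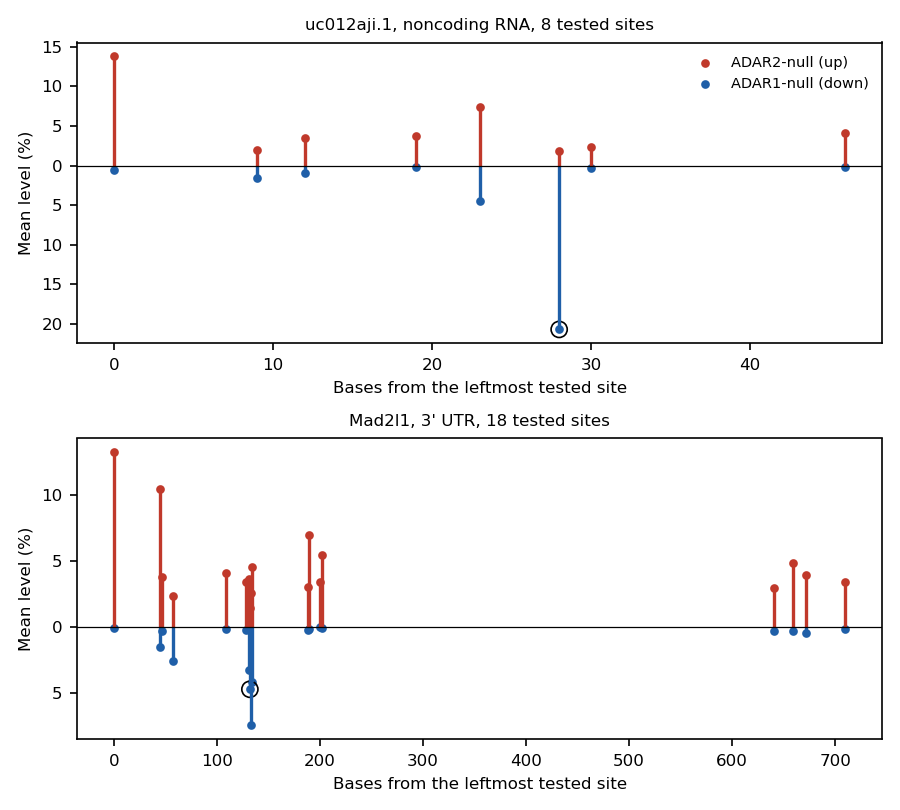
Mean editing level (percent, 2 libraries) of the tested sites in uc012aji.1 (top, 8 sites) and the Mad2l1 3′ UTR (bottom, 18 sites) against the distance in bases from the leftmost tested site. Red bars going up are ADAR2-null and blue bars going down are ADAR1-null. The ringed site in each transcript is the one called higher in ADAR1-null, and the other called sites are higher in ADAR2-null. Next to the ringed Mad2l1 site lie uncalled sites with similar levels in both lines or a higher level in ADAR1-null.

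Some sites were edited in both lines with no call. Only 1 tested site was at 20% or more in all 4 libraries, in the 3′ UTR of Rpa1, the large subunit of the single-stranded DNA binding complex, at chr11:75114517. It had 36.4% and 44.6% in ADAR2-null and 50% and 40.7% in ADAR1-null, from at least 70 reads a library. The libraries of the lines overlapped (-4.83 ± 6.24 points, edgeR adjusted p = 0.778), and with so few reads a difference of a few points was not detectable. In ADAR1_WT it was at 92.4% ± 2.16 and in P150_KO at 54.8% ± 4.53 (SD, n = 2).

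Gria3, an AMPA-type glutamate receptor subunit, had sites of both kinds 36 bases apart. Its arginine-to-glycine recoding site at chrX:39007429 had 8.32% and 0.919% in ADAR2-null and 2.75% and 0.467% in ADAR1-null. The libraries overlapped, the first of each line was the higher (edgeR adjusted p = 0.516), and ADAR1_WT stood at 33.3% ± 1.27 (SD, n = 2), well above both. The intronic site at chrX:39007465 had 5.01% and 2.76% in ADAR2-null and no edited read among 1263 in ADAR1-null, which allows up to 0.238%. The mean in ADAR2-null was 16.4-fold that limit (a difference of 3.89 ± 1.12 points, edgeR adjusted p = 0.00575).

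In Adarb1, which encodes ADAR2 and carries known self-editing sites, the tested intronic position chr10:76786805 had 3.26% and 1.32% in ADAR2-null and 4.38% and 3.15% in ADAR1-null. The libraries overlapped (edgeR adjusted p = 0.519), and ADAR1_WT had 16.9% ± 3.99 (SD, n = 2). In Unc80, a subunit of a sodium leak channel, an intronic site at chr1:66718581 had 4.04% and 0.330% against 0% and 0.339% (edgeR adjusted p = 0.108). It passed the threshold without the second ADAR2-null library (0.0171). Ifnar1 (a receptor chain for type I interferon, intronic, chr16:91490947) had an edited read share of 2.87% in 1 ADAR2-null library and 1.22% in 1 ADAR1-null library, and 0% in the other library of each line (edgeR adjusted p = 0.702). Mlh3 (mismatch repair, 3′ UTR, chr12:86576038) had 0.910% and 0.796% in ADAR2-null and 1.83% and 1.09% in ADAR1-null without overlap, and was not called (edgeR adjusted p = 0.575).

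By annotation, ADAR1-side sites made up 59 of 180 tested 3′ UTR sites, 5 of 12 in noncoding RNA, 5 of 9 nonsynonymous sites, 4 of 30 intronic sites and 1 of 4 between genes. The Ifi202b site, at 0.379% in untreated ADAR1_WT, is counted among the nonsynonymous ones and among all 74 ADAR1-side sites. The ADAR2-side sites were 7 of the 180 in 3′ UTRs, 1 of 12 in noncoding RNA, 2 of 9 nonsynonymous, the 1 synonymous site and 1 of 30 intronic sites. Among genes known as ADAR2 targets, 8 sites of 5 genes were tested (Adarb1, Cog3, Gria3 and Unc80 among them), with 3 higher in ADAR1-null, 1 higher in ADAR2-null and a median difference of -0.567 points. The 3 Blcap sites were the only tested ones among the known ADAR1 targets looked up, all higher in ADAR2-null (median 3.99 points). In the 3′ UTR duplexes of Mad2l1 and Rpa1, 13 of 23 tested sites were higher in ADAR2-null and 1 in ADAR1-null (median 2.82 points). All of these called sites were in Mad2l1, and none of the 5 tested in Rpa1 was called. For the DNA repair genes Mdc1, Mlh3 and Rpa1 the counts were 4 and 0 of 12 (median -0.462 points), all 4 of them in Mdc1. Over all tested sites they were 74 and 12 of 236, with a median of 2.002 points. The lists of double-stranded RNA sensing genes and of ADAR genes had 1 tested site each, in Ifnar1 and Adarb1, and neither was called.

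Levels in the ADAR1_WT line were above the levels of the null lines added together at 132 of 234 tested sites covered there, and below at 102. This was so at 57 of 74 ADAR1-side sites, where the median was 9.17% in ADAR1_WT and 4.75% for the sum. It was so at 8 of 12 ADAR2-side sites (median 11.0% against 5.14%). Of 148 covered sites that were not called, ADAR1_WT was above the sum at 67 and below it at 81 (median 2.52% against 2.99%). The tested sites were kept for their mean level in the null lines and not in ADAR1_WT, which favours the sum. The sum also counts the background of both null lines. Among ADAR2-side sites, uc009qeo.1 stood at 27.5% ± 0.0924 in ADAR1_WT, and the sum of the null lines was 5.21%. Fnbp1 stood at 17.0% ± 2.57 there, against a sum of 2.23%. Dnajc1 at 18136982 went the other way, with 0.156% ± 0.0979 in ADAR1_WT and 4.496% for the sum, nearly all of it from ADAR1-null cells. Als2cl had 7.36% ± 0.796 in ADAR1_WT, below its level without ADAR1 (SDs, n = 2; these comparisons with ADAR1_WT were not tested).

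The sides rest on the contrast of the ADAR2-null and ADAR1-null lines, and their levels were next read in the untreated P150_KO and ADAR1_WT libraries (2 each). Those libraries took no part in that contrast but, as part of the fit to all 20, shared in its estimate of spread. In that comparison 517 sites were tested and 171 (33.1%) were called by edgeR, 168 lower in P150_KO (32.5%) and 3 higher (0.58%). Of the 74 ADAR1-side sites, 69 were tested, 44 were lower in P150_KO and 2 higher. Their median level was 0.949% in P150_KO and 9.72% in ADAR1_WT, and the median site kept 13.0% of its ADAR1_WT level. Of the 12 ADAR2-side sites, 10 were tested and 6 were lower, among them Iqgap1, Als2cl, Fnbp1 and both Cog3 sites. Their medians were 3.53% in P150_KO and 14.5% in ADAR1_WT, with a median of 22.4% kept. Of 97 tested sites that had not been called, 28 were lower. Over all 517 sites the medians were lower, 0.650% in P150_KO and 3.82% in ADAR1_WT, with a median of 14.3% kept.

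Sites of both sides were thus called lower in the line lacking only p150, and a count over 10 sites is small. Both counts fell whichever of the 4 libraries was left out, as did the count over all sites. Most of the 6 ADAR2-side calls were lost each time. Fitted to the 4 libraries alone, the counts were 22 of 69 and 1 of 10, against 12.4% lower over all 517 sites. With no minimum level they were 31 of 73 and 0 of 12, against 1.83% of 5847 sites. With a mean level of at least 5% they were 32 of 41 and 6 of 8. The share over all sites was then much the same, 102 of 135 (75.6%). Whether the sides differ in what P150_KO keeps was not tested.

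Named sites show how wide the range was. Cog3 at 76119526 stood at 65.2% ± 3.30 in P150_KO and 91.2% in ADAR1_WT, a difference of -26.0 ± 2.56 points (edgeR adjusted p = 0.0177). Als2cl fell from 7.36% to 0.658% ± 0.227 (edgeR adjusted p = 0.0203), although it is on the ADAR2 side. The uc012aji.1 site at 6122636 had 24.5% ± 0.542 in P150_KO and 38.6% ± 7.26 in ADAR1_WT (edgeR adjusted p = 0.203, not called), while its ADAR1-side neighbour at 6122608 fell from 14.2% to 2.94% ± 0.210 (edgeR adjusted p = 0.0155). On the ADAR1 side Mad2l1 at 66490075 fell from 31.6% to 1.45% ± 0.575 (edgeR adjusted p = 0.00103) and Car5b from 39.8% to 1.57% ± 2.22 (edgeR adjusted p = 0.00444). The 3 Blcap sites were not called, with 6.16% ± 1.71 in P150_KO and 14.8% ± 3.61 in ADAR1_WT at the tyrosine-to-cysteine site (edgeR adjusted p = 0.0677). The 2 ADAR1-side sites called higher in P150_KO are both in 9930104L06Rik, at chr4:124620535 (3.43% against 0.192%) and chr4:124620544 (2.62% against 0.152%). Neither was called with any 1 of the 4 libraries left out, and only the first with limma or with a replicate block. Values after ± are SDs over 2 libraries, except for the difference, which has its SE.

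**Figure D4:**
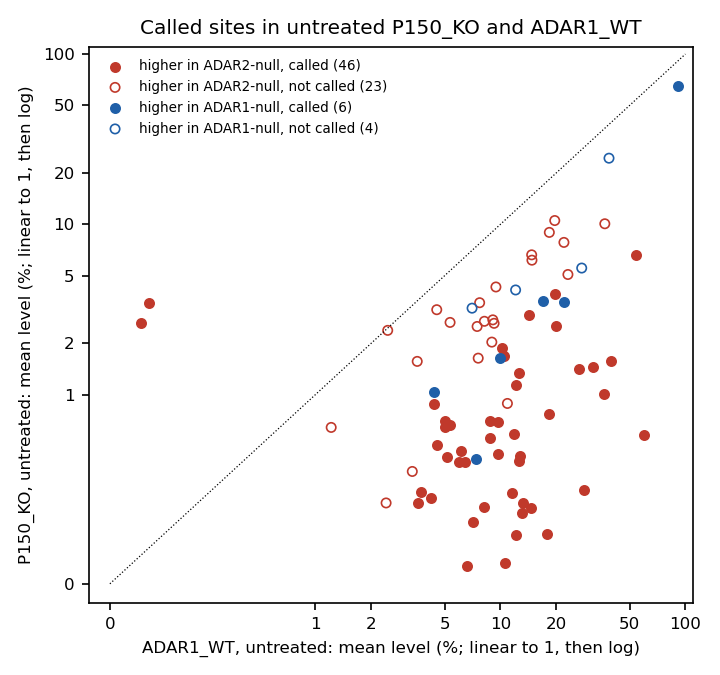
Mean level in untreated P150_KO against untreated ADAR1_WT (percent, 2 libraries each; axes linear up to 1%, logarithmic above) for the 69 ADAR1-side (red) and 10 ADAR2-side (blue) sites tested there. Filled points were called different between these lines and open points were not; nearly all lie below the dotted line of equal level, and the 2 red points far to its left are the sites of 9930104L06Rik.

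After interferon the ADAR1-side sites kept their order between the lines, as far as group medians show. Their median level was 26.8% in treated ADAR2-null cells and 0.242% in treated ADAR1-null cells, against 4.60% and 0.217% untreated. Mad2l1 at 66490075 stood at 70.3% ± 2.39 in treated ADAR2-null and at 0% in both treated ADAR1-null libraries, and Ovca2 at 72.0% ± 9.50 and 0.566% ± 0.127 (SD, n = 2). The ADAR2-side sites had medians of 5.16% in treated ADAR2-null and 1.41% in treated ADAR1-null, against 0.438% and 4.49% untreated. Cog3 at 76119526 stood at 31.3% ± 2.71 in treated ADAR1-null and 12.8% ± 1.04 in treated ADAR2-null, and Als2cl at 9.08% ± 0.307 and 0.884% ± 1.25. In STAT2_NULL the untreated medians were 9.74% for ADAR1-side and 4.79% for ADAR2-side sites. The effect of interferon was not tested here.

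**Figure D5:**
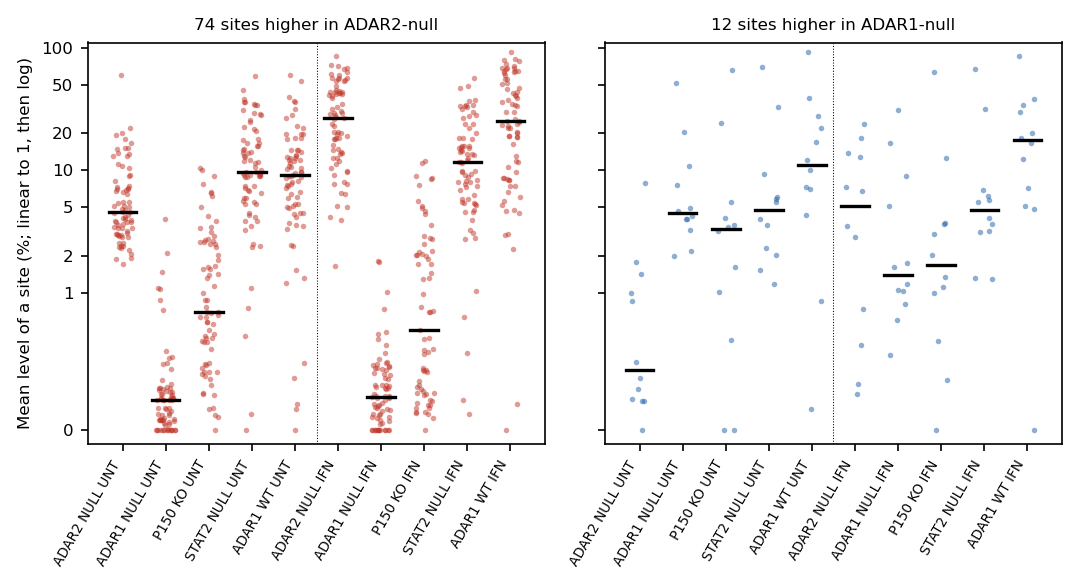
Mean level (percent, 2 libraries; linear up to 1%, logarithmic above) of the 74 sites higher in ADAR2-null (left) and the 12 sites higher in ADAR1-null (right) in each of the 10 groups, with the untreated groups (UNT) left and the interferon groups (IFN) right of the dotted line. Each point is a site with at least 50 reads in both libraries of the group and the black bars are medians; the left panel is near 0 in ADAR1_NULL under both treatments.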

How the data were processed

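The authors deposited 1 table per library with, per the file headers, the coverage and edited reads of each site as counts and the editing level as a fraction. Reads were handled with BWA and SAMtools on mm9, per the submitters' processing notes; the sources used here give no versions or filters. PCR products of a sample were pooled and indexed in 15 further cycles, per the labels' protocols. Levels were recomputed from the deposited counts. Positions are as deposited, and whether they count from 0 or 1 is not stated.

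Sites needed at least 50 reads in all 4 libraries and a mean level of at least 1%. Edited and unedited counts were tested with edgeR 4.0.16 (modelMatrixMeth, glmQLFit, glmQLFTest; limma 3.58.1, R 4.3.3), 1 coefficient per group, all 20 libraries in the fit, two-sided, with Benjamini-Hochberg adjustment over all sites tested and a threshold of 0.05. The test was also run on simulated counts with a single setting for the spread between libraries, which real libraries need not share. The outcome of that run is not used as support here. SEs of differences come from the 2 libraries per group. Where a group had no edited read, its limit is 3 reads over the reads of the group. Ratios to that limit take the mean of the other line as exact. Tables and exact tests used Python 3.11.15 with pandas 2.3.3, scipy 1.17.1 and numpy 2.4.6, and plots matplotlib 3.10.9.

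Named sites were the most different called site in each of the 12 genes with the greatest difference in each direction; all coding sites; the most different site of each direction in genes called in both; sites at 20% or more in all 4 libraries; and the most different site of each listed gene. The single sites of other genes and neighbours given beside them were chosen after their values were seen. Of the sites the rule takes, 1 is not reported here. Members and gene lists were chosen with earlier results of these data known. Of 93 gene names, 69 are current symbols in RefSeq (GRCm38.p6, names only), 7 are older symbols and 17 were not matched. Alternatives were other coverage and level minimums, the 4 libraries alone, limma, a replicate block, a minimum difference and each library left out.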

Additional observations from a re-analysis of the deposited data

Results flagged for a closer look

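At 6 named sites the order of the lines was opposite after interferon, with both treated ADAR2-null libraries above both treated ADAR1-null libraries, whereas both untreated ADAR1-null libraries had been the higher. The difference between the treatments was not tested at any of them. Treated ADAR2-null cells were also the higher over all 236 tested sites. Medians there were 10.1% in treated ADAR2-null and 0.404% in treated ADAR1-null, against 2.48% and 0.790% untreated. The share of all tested sites with such a change of order is not given here, so it is not shown to be particular to these 6. In Klhl24 at 20123821 the treated levels were 22.1% and 25.7% in ADAR2-null and 1.24% and 0.604% in ADAR1-null, a treated difference of 23.0 points (untreated -3.67). In Dnajc1 at 18136982 they were 15.0% and 21.8% against 0.888% and 0.206%, a treated difference of 17.9 points (untreated -4.04). The Mad2l1 site at 66490207 had a treated difference of 6.09 points (untreated -3.28), with the ADAR2-null libraries far apart at 3.69% and 10.9%. The Fnbp1 intronic site had a treated difference of 5.15 points (untreated -1.80), and the uc009qeo.1 site one of 2.45 points (untreated -4.61). The Mlh3 site, not called untreated, had a treated difference of 0.579 points (untreated -0.609), with treated levels of at most 1.69%. All are 3′ UTR sites but that of Fnbp1.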

How the results depend on the processing

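Between ADAR2-null and ADAR1-null, 86 sites were called; the count was 40 when the 4 libraries were fitted alone, 20 (of 25 tested) with a mean level of at least 5%, and 36 when a difference of at least 5 points was also asked. With no minimum level 66 of 4767 tested sites were called. Counts were 61 to 83 with each library left out, and 46 of the 74 ADAR1-side and 5 of the 12 ADAR2-side sites were called in all 4 of these fits. Other coverage minimums and limma gave 82 to 97. In P150_KO against ADAR1_WT, 171 sites became 66 with the 4 libraries alone, 113 with no minimum level and 103 (of 135 tested) at 5%, and 75 to 137 with each library left out; the 2 lowest counts came without the second (75) and without the first P150_KO library (77). Replicate numbers did not pair the samples (correlations of -0.000253 and 0.00894), and the replicate block gave 82 and 165 calls. The mean difference stayed within 1.603 to 2.80 points with each library left out, and over all 5420 covered sites it was 0.197 points. Of the 36 named sites 29 were called; 14 calls were lost with the 4 libraries alone, 3 with the block, 1 with limma and 5 to 9 with 1 library left out. No named call changed direction in those fits, but 3 named sites that were not called did with 1 library left out: Cog3 at 76119510 (-0.297 to 0.985 points, negative without the first ADAR1-null library), Gria3 at 39007429 (-0.691 to 6.71) and Ifnar1 (-0.608 to 2.26), both negative without the first ADAR2-null library. The number of libraries and, at Rpa1 and D9Ertd402e, fewer than 100 reads in a library limit the precision.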

Other observations

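Several transcripts outside the named set carried more than 1 ADAR1-side site. In the 3′ UTR of Gla, the lysosomal alpha-galactosidase, 5 of 7 tested sites were higher in ADAR2-null cells, and the greatest difference was 7.08 points at chrX:131123181 (9.01% and 5.67% in ADAR2-null, 0.0510% and 0.480% in ADAR1-null; edgeR adjusted p = 0.000362). The 3′ UTR of Slc35e2, a member of a nucleotide sugar transporter family, had 3 of 3 tested sites on that side, led by chr4:154996012 with 7.55% and 3.59% against 0% and 0.0714%. Nup155, a nuclear pore scaffold protein, had 2 of 3 sites, with 2.24% and 2.88% against 0% and 0% at chr15:8109489. Both called intronic sites of Zkscan3, a zinc finger protein that represses autophagy genes, had no edited read in either ADAR1-null library and 1.14% to 5.17% in ADAR2-null. These sites were chosen after their values were seen.

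Among sites that were not called, a 3′ UTR position of Cycs, which encodes cytochrome c, had 0% in both ADAR2-null libraries and 13.3% and 0.993% in ADAR1-null (edgeR adjusted p = 0.0724). The 3′ UTR of uc009bto.2 at chr6:47897520 had 32.8% and 1.80% in ADAR2-null and 0% and 2.50% in ADAR1-null (edgeR adjusted p = 0.331), so that 1 library made its whole difference of 16.05 points.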
